A study of Rattus norvegicus with 16 samples.

Results

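The genes of the cytosolic ribosome were followed in RNA sequencing of rat knee cartilage. Members were taken by name: rows whose gene name starts with Rpl or Rps and a digit, or is Rpsa, Rplp0, Rplp1 or Rplp2, with the Rps6k kinases left out. The rule gave 98 rows of 88 names among the 23552 rows of the deposited table, and 97 of the 98 had an FPKM (fragments per kilobase of transcript, scaled to library size) of at least 1 in at least 4 libraries and were tested. Rpl30l1 was the row that did not pass this filter. By the table's descriptions, 89 of the 98 rows were grouped under a cytosolic ribosomal protein. The other 9 rows were set apart by name, whatever their description. They were 7 related genes with names of their own, the Rps4y2 row, and Rps19bp1, which is named for binding RPS19 and is not part of the ribosome.

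There were 16 libraries, 4 in each of 4 groups, all from rats given as 10 weeks old. The groups were healthy cartilage (library names Sham), osteoarthritic cartilage (library names PBS), osteoarthritic cartilage that received hyaluronic acid with cells and a drug (HA-treated), and osteoarthritic cartilage that received a coacervate with cells and a drug (coacervate-treated). A coacervate is a dense polymer phase that separates from water and can hold a cargo. The labels name neither the drug, nor the cells, nor the polymer, and none of them states that replicates are separate animals, so each p-value measures the spread between these libraries only. No group received the carrier alone, the cells alone or the drug alone.

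A ribosome is made of a small subunit that reads the mRNA, a large subunit that joins amino acids, and a flexible stalk of P proteins on the large subunit that recruits translation factors. One copy of nearly every ribosomal protein is needed per ribosome, and the mRNAs of these genes typically share a stretch of pyrimidines at their very start, the 5′ terminal oligopyrimidine (TOP) motif, through which the kinase mTOR and the protein LARP1 control their translation. Mammalian genomes also hold many processed copies of ribosomal protein genes, most of them without introns, which makes reads from one protein hard to place on one row.

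The TOP motif is a feature the choice by name did not use, so the annotated starts were read from RefSeq promoter sequences of rat build GRCr8. Of the 88 names, 67 had an entry, in 68 promoters. Among the 59 promoters of genes for subunit and stalk proteins, 36 (61.0%) had an unbroken run of at least 8 C or T touching the stretch from 5 bases before to 10 bases after the annotated start, against 10.6% of all 33469 promoters in the table. The windows below run from 15 bases before the start to 15 bases from it on, 30 bases each, written 5′ to 3′ on the gene's strand with the longest C/T run in capitals. The first 5 show the run in genes of both subunits and the stalk.
Rps23, chr2:23814502-23814531, plus strand: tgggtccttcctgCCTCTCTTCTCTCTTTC
Rpl10, chrX:157205835-157205864, plus strand: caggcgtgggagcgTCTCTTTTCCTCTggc
Rpl35, chr3:43165907-43165936, minus strand: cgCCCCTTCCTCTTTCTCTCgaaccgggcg
Rplp1, chr8:71290858-71290887, minus strand: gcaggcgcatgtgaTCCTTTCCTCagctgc
Rplp0, chr12:46718376-46718405, minus strand: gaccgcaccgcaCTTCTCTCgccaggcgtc
Rpl3l, a related gene with a name of its own, had a run of 9. The next 3 are shown because they belong to other such genes and carry only short runs.
Rps27l, chr8:76443643-76443672, plus strand: gtttattcaTTTgtcattatttgtggtgtc
Rpl22l1, chr2:113683181-113683210, plus strand: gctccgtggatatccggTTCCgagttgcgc
Rpl7l1, chr9:21695703-21695732, plus strand: agctgcagatgcattgtgggaagCCTTTaa
Rps23 had the longest run of all members, 21 bases from position -2 to 19 (there is no position 0), of which the window shows the first part, and Rpl35 had 18. Rplp0 had 8, the shortest run that was counted. Rps27l had 3, Rpl22l1 4 and Rpl7l1 5. Runs of 8 or more were found in 3 of the 9 promoters of the remaining members, those of Rpl35al1 (11), Rpl3l (9) and Rps4y2 (8). Rps3, Rps6 and Rplp2 had 1, 2 and 2 at their annotated start. A start annotated some bases off could leave a run out of this count or bring one in. Some counted runs ended before the annotated start, as those of Rpl13a and Rpl5 did, at positions -2 and -4. Further motifs were also searched on both strands of the whole 300 bases. CTTCCG was found in 33 of the 59 promoters (55.9%), against 16.6% of all promoters, and GCCATNTT in 7 (11.9%), against 6.96%. These motifs can overlap each other and the pyrimidine run, and a match is a match of letters only.

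Total counts were 36988722 to 50725189 per library. Of the cartilage matrix genes, Col2a1, the main collagen of cartilage, had an FPKM of 169 to 593 and Comp 60.6 to 215 over the libraries, while Matn1 was listed at 0 to 0.64. Every library had haemoglobin counts, at 10.2% to 22.2% of its total, and the source of this RNA was not tested. Skeletal muscle genes took 0.390% to 2.37%. On the first principal component, replicates 2 and 3 of the osteoarthritic group lay at 69.6 and 58.9, far from the remaining libraries at -32.3 to 12.7. The main counts, medians and fold changes that use the osteoarthritic group are therefore also given without these 2 libraries. The 2 were picked from these data, and only osteoarthritic replicates 1 and 4 remain in such fits.

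Ribosomal protein mRNAs were abundant in all groups. On the FPKM scale, which is per length, the median member had a mean of 314, against 8.53 for the median of all tested genes, and 74 of the 98 rows were above 100. Rpsa, the laminin-receptor protein of the small subunit, was highest at 1251, followed by Rplp0, the stalk's base, at 1235. In the healthy group the 2 did not separate: Rpsa had 1193 and Rplp0 1150 FPKM. Rps2 had 947 and Rplp1, the first of the small stalk proteins, 913. At the low end, 6 rows were under 10 FPKM, among them Rpl10l at 2.46 and Rpl39l at 3.85, which are related genes known from the testis, and Rps10l1 at 4.54.

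The share of all counts that fell on the 98 rows was 2.68%, 3.14%, 2.88% and 3.04% in healthy replicates 1 to 4. It was 2.48%, 5.25%, 4.77% and 2.55% in the osteoarthritic libraries. HA-treated libraries had 2.97%, 3.48%, 2.93% and 3.38%, and coacervate-treated libraries 3.34%, 2.61%, 2.41% and 2.98%. The osteoarthritic group thus held both the 2 highest libraries and, in replicates 1 and 4, values below every healthy library. The group means were 2.94% ± 0.201 (SD, n = 4) for healthy and 3.76% ± 1.45 for osteoarthritic cartilage. They were 3.19% ± 0.281 after hyaluronic acid and 2.83% ± 0.411 after the coacervate. Apart from coacervate-treated replicate 3, at 2.41%, every library of the other 3 groups lay between the lowest and highest osteoarthritic library.

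**Figure D1:**
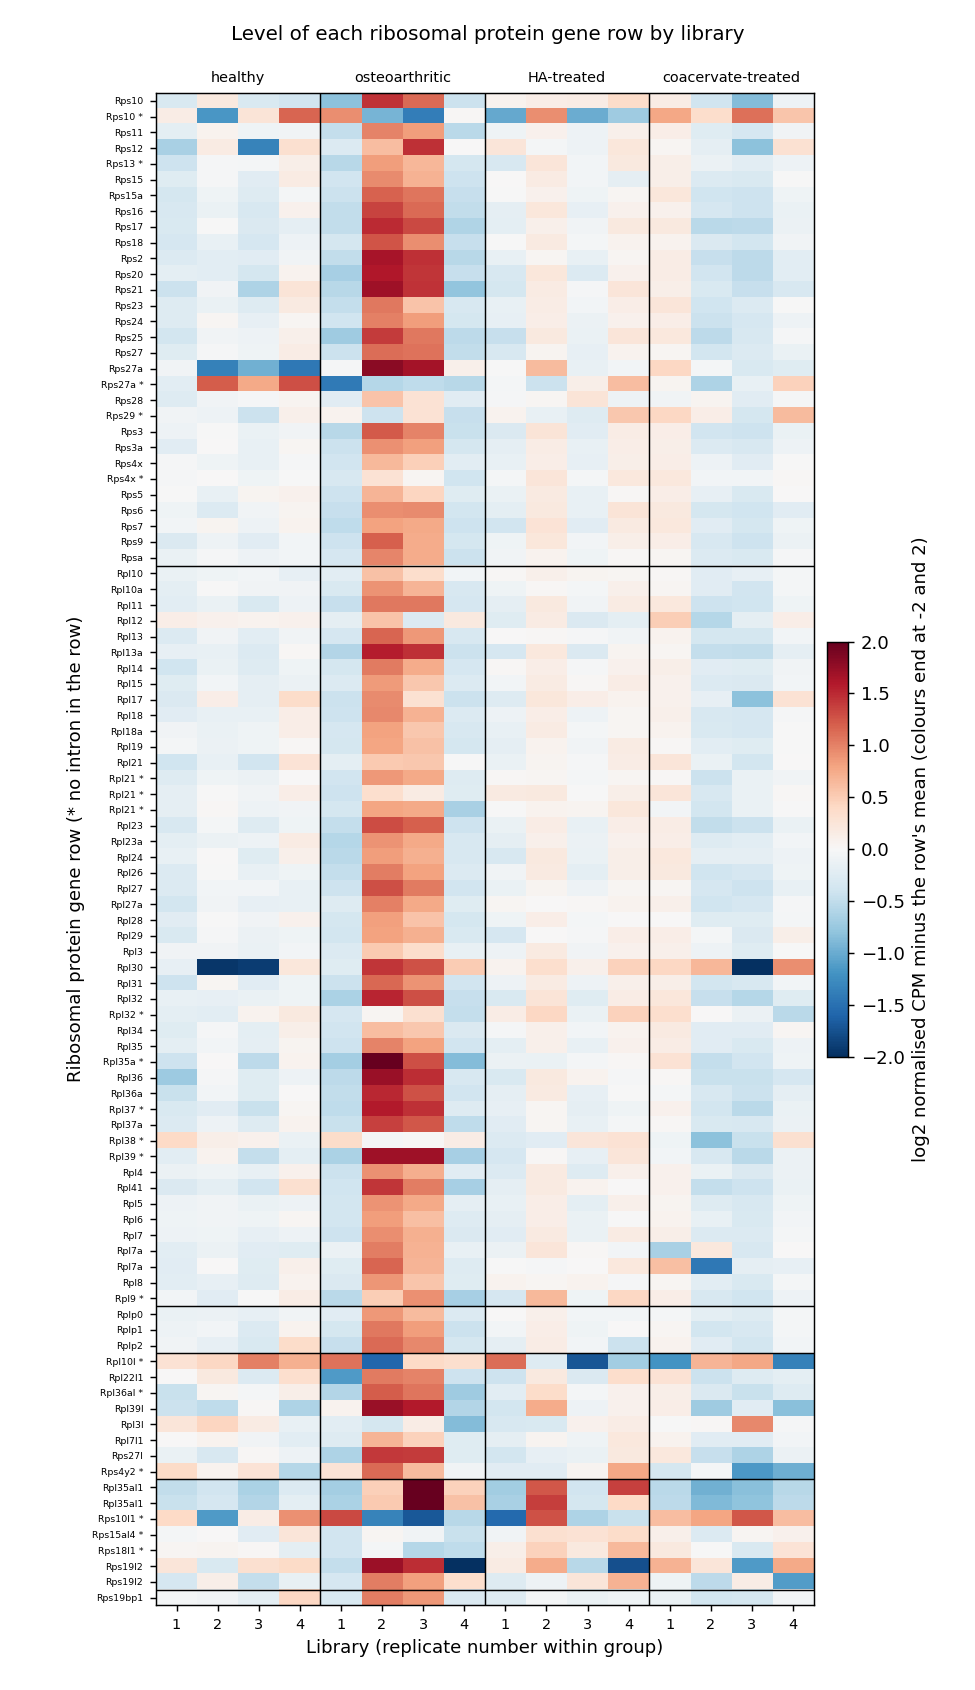
Each line is 1 tested row (1 row is left out) and each column 1 library, with the colour giving log2 normalised CPM minus the mean of the row over the 16 libraries; black lines part the groups and, from top to bottom, small subunit, large subunit, stalk, related genes with names of their own, copies by name, and Rps19bp1. Osteoarthritic replicates 2 and 3 are red in most rows, and rows such as Rps10 without introns, both Rps27a rows, Rpl30 and Rps19l2 break the pattern.

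Most members were high or low in the same libraries. For each library the median over the 97 rows of the log2 level, taken relative to each row's own mean, is called the shared shift here. It was 0.97 in osteoarthritic replicate 2 and 0.76 in replicate 3, where 89 and 91 of the 97 rows lay above their mean. It was -0.41 and -0.35 in osteoarthritic replicates 1 and 4, the 2 lowest of the 16 libraries. The healthy libraries ran from -0.20 to 0.04, the HA-treated from -0.15 to 0.14 and the coacervate-treated from -0.32 to 0.11. In 79 of the 97 rows (81.4%) osteoarthritic replicates 2 and 3 were the 2 highest libraries, which held for 20.1% of all tested genes.

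**Figure D2:**
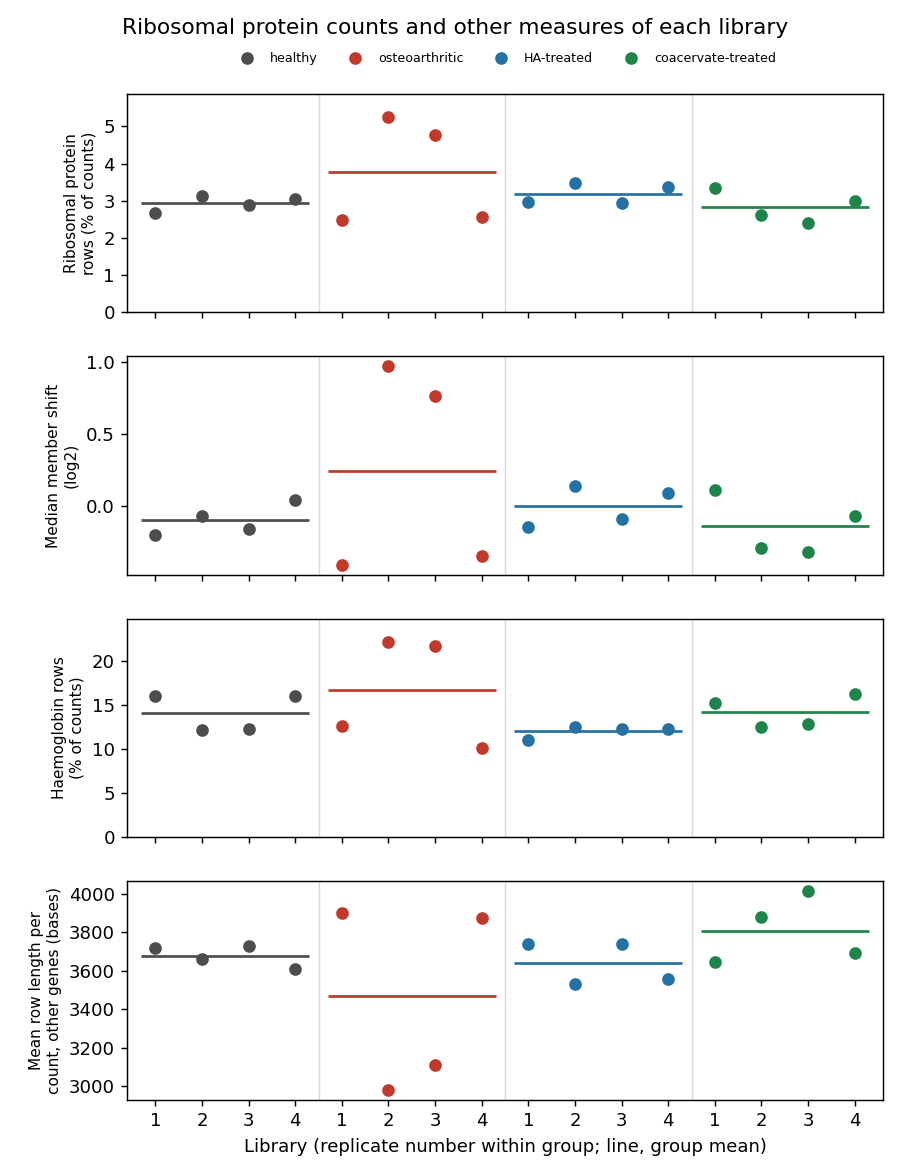
Each point is 1 library, with a line at the group mean; from top to bottom the panels show the share of counts on the 98 ribosomal protein rows, the shared shift of the 97 tested rows, the share of counts on haemoglobin rows, and the mean row length per count over all rows that are neither. Osteoarthritic replicates 2 and 3 are highest in the upper 3 panels and lowest in the bottom one, at 2981 and 3111 bases.

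Other measures moved with this shift. Haemoglobin rows took 22.2% and 21.7% of counts in osteoarthritic replicates 2 and 3, and 10.2% to 16.3% in the other 14 libraries. The erythroid (red cell) genes did not move in this way. Their share of counts in these 2 libraries lay inside the range of the others, 1.03% to 1.6%. Of 19 tested erythroid genes, 10 had a positive and 9 a negative fold change between osteoarthritic and healthy cartilage, with a median of 0.01. None was called (edgeR), and 0 had an unadjusted p under 0.05. Their median was -0.06 without osteoarthritic replicates 2 and 3. All 8 tested haemoglobin genes had a positive fold change between osteoarthritic and healthy cartilage, with a median of 0.46 (0 called by edgeR, 2 at an unadjusted p under 0.05) and of -0.26 without these libraries. Cartilage matrix genes went the other way: they took 0.232% and 0.286% of counts in the 2 libraries, the lowest of all 16, and 0.688% and 0.633% in osteoarthritic replicates 1 and 4, with 0.294% to 0.678% in the other groups. Col2a1 had an FPKM of 169 and 201 in the 2 libraries and 562 and 547 in osteoarthritic replicates 1 and 4. Acan, at 8.14 and 10.8 in the 2 libraries, was below its healthy range of 13.7 to 31. Some genes of the list were not: Comp had 77 and 101 (healthy 60.6 to 89.6), Cnmd 21.8 and 27.2 (20.5 to 29.2) and Hapln1 15.9 and 20.2 (14.1 to 30.2). Col9a1, Cnmd and Hapln1 were lowest of all in coacervate-treated replicate 3, at 5, 3.89 and 8.42. Of 15 tested cartilage matrix genes 11 had a positive fold change between osteoarthritic and healthy cartilage, with a median of 0.11 (0 called by edgeR, 2 at an unadjusted p under 0.05) and of 0.51 without these libraries. With haemoglobin rows left out of the total, the members' share was still 6.76% and 6.09% in these 2 libraries and at most 3.98% in the others. Neutrophil genes took 2.35% and 1.60% there and 0.756% to 1.69% elsewhere, so replicate 3 was inside that range. None of the 18 tested neutrophil genes passed between osteoarthritic and healthy cartilage (edgeR, 5 at an unadjusted p under 0.05), and their median was 0.29, or -0.01 without these libraries. Of all genes, 17.8% had an unadjusted p under 0.05 in this comparison (edgeR). The counts also sat on shorter rows: leaving out haemoglobin and the members, the mean row length per count was 2981 and 3111 bases in the 2 libraries against 3529 to 4014 in the rest. Between osteoarthritic replicates 2 and 3 and replicates 1 and 4, the median log2 difference of the other genes ran from 0.52 in the shortest quartile of rows to -0.49 in the longest. The members differed by a median of 1.23, with 1.27 for the shorter and 1.2 for the longer members, and other genes no longer than the members' upper quartile by 0.53. The part of haemoglobin share, neutrophils, cartilage share or row length in the members' shift was not tested. In such bulk samples, fewer cells of a type and less RNA per cell cannot be told apart.

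Osteoarthritic against healthy cartilage was the comparison in which members passed the test. With edgeR's quasi-likelihood test over 14337 genes, 2 of 97 members passed at an adjusted p of 0.05, where 0.502% of all genes did. Both carry the name Rps27a, which encodes ubiquitin fused to the small subunit protein RPS27A, and they went in opposite directions. At an unadjusted p under 0.05 there were 38 members higher and 2 lower, or 40 of 97, where 17.8% of all genes passed. That fit shares 1 estimate of the spread over the 4 groups. With only the 8 libraries compared the count was 10 (edgeR), with a replicate block 18 (edgeR) and with limma on log2(FPKM + 1) 11. The share of all genes at that p was not taken in these fits. In the fit of all libraries the fold change was positive in 88 rows and negative in 9. The median log2 fold change was 0.48 for members and 0.01 for all tested genes. Without osteoarthritic replicates 2 and 3 the direction turned: 83 of 97 members were lower, the median was -0.29 and none passed (edgeR). In that fit 38 members had an unadjusted p under 0.05, where 15.3% of all genes had, and the median of all genes was -0.02. The osteoarthritic group then held replicates 1 and 4 only, the libraries with the lowest shared shift. The turn in direction thus followed from which libraries were left out, and rows that move together do not add separate support.

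The calls also hung on single libraries. Without osteoarthritic replicate 1 there were 29 members called, 28 of them higher, where 7.83% of all genes were called. Without replicate 2 or without replicate 3 there were none, with medians of 0.24 and 0.33. Without replicate 4 there was 1, where 0.335% of all genes were called. DESeq2 called 2 members, both named Rps27a, and 2.92% of all genes, and limma on log2(FPKM + 1) called 0. The limma fit had a smaller median, 0.23, with 79 rows higher and 18 lower.

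The stalk genes show the shape of the data. Rplp0 had 1400, 1410, 1370 and 1456 normalised counts scaled to library size (CPM) in healthy cartilage and 1304, 2809, 2385 and 1273 in osteoarthritic cartilage. The 2 high values lay far above the healthy range and the other 2 below it. The log2 fold change was 0.46 ± 0.21 (SE, edgeR adjusted p = 0.261), and -0.13 ± 0.10 without the 2 high libraries. Rplp1 and Rplp2, the small acidic proteins that hang from Rplp0, had log2 fold changes of 0.52 ± 0.26 and 0.52 ± 0.30 and did not pass. Without the 2 high libraries these were -0.30 ± 0.13 and -0.39 ± 0.18.

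Among the 31 small subunit rows 28 had a positive fold change, with a median of 0.51, and without osteoarthritic replicates 2 and 3 there were 3, with a median of -0.33. Rpsa had 1309, 1405, 1333 and 1387 CPM in healthy libraries and 1142, 2816, 2388 and 1068 in osteoarthritic ones. The healthy values again fell between the 2 pairs of osteoarthritic values. Rps6, the protein phosphorylated downstream of mTOR, had 414, 363, 418 and 456 CPM in healthy and 320, 841, 844 and 343 in osteoarthritic libraries, a log2 fold change of 0.51 ± 0.28 (edgeR adjusted p = 0.336). Rps3, which lines the entry of the mRNA channel, had 0.59 ± 0.32. With osteoarthritic replicates 2 and 3 left out, Rpsa had -0.30 ± 0.11, Rps6 -0.32 ± 0.17 and Rps3 -0.43 ± 0.17. Rps14 and Rps19 had no row under those names and were not analysed by name here, while the row LOC100911847, described as S14, had 1.11 ± 0.43 (edgeR adjusted p = 0.224) and -0.38 ± 0.23 without these libraries.

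Among the 47 large subunit rows 46 had a positive fold change, with a median of 0.46, and without osteoarthritic replicates 2 and 3 there were 4, with a median of -0.25. Rpl13a had the largest difference of the 5 genes looked at singly here: 563, 572, 525 and 643 CPM in healthy against 420, 1883, 1731 and 469 in osteoarthritic libraries, a log2 fold change of 0.97 ± 0.38 (edgeR adjusted p = 0.225). The 2 groups overlapped here, with replicates 1 and 4 below all healthy libraries. Rpl5 and Rpl11, which travel with 5S rRNA and can bind MDM2 outside the ribosome, had 0.49 ± 0.22 and 0.69 ± 0.29. Rpl10, which is joined late to the large subunit, had 0.31 ± 0.14, and Rpl3, near the peptidyl transferase centre, 0.24 ± 0.16. The 5 genes had -0.38 ± 0.17 (Rpl13a), -0.17 ± 0.12 (Rpl5), -0.21 ± 0.16 (Rpl11), -0.03 ± 0.09 (Rpl10) and -0.13 ± 0.11 (Rpl3) without osteoarthritic replicates 2 and 3.

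The rows of related genes differed more among themselves. Rpl3l, the paralogue of Rpl3 found in striated muscle, had 36.3, 41.7, 34.7 and 27.8 CPM in healthy, 26.7, 24.1, 34.2 and 16.9 in osteoarthritic, 24.6, 25, 32.8 and 34.1 in HA-treated and 30.7, 31.4, 60.3 and 30.4 in coacervate-treated libraries. Osteoarthritic replicates 2 and 3 were not its 2 highest libraries. Its highest library, coacervate-treated replicate 3, was also the one with the largest share of counts on skeletal muscle genes, 2.37%, where the other 15 libraries had 0.390% to 1.2%. The part of muscle in the Rpl3l level was not tested. Its log2 fold change was -0.46 ± 0.24 between osteoarthritic and healthy cartilage and 0.58 ± 0.24 between coacervate-treated and osteoarthritic cartilage, and neither passed. It kept these directions without osteoarthritic replicates 2 and 3, at -0.69 ± 0.29 and 0.81 ± 0.29.

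Rps27l, a paralogue of Rps27 known as a p53 target, has no pyrimidine run at its annotated start. It had 20.4, 18, 22.9 and 20.9 CPM in healthy and 14.7, 59.7, 59.4 and 18.9 in osteoarthritic libraries (log2 fold change 0.89 ± 0.36, edgeR adjusted p = 0.231). Rpl39l had 1.47, 1.39, 2.01 and 1.28 CPM in healthy and 2.06, 6.55, 5.93 and 1.32 in osteoarthritic libraries, 1.37 ± 0.43 (edgeR adjusted p = 0.178). Rpl22l1, which can stand in for Rpl22, had 0.31 ± 0.37, Rpl36al 0.58 ± 0.35 and Rpl7l1 0.26 ± 0.18. Leaving out osteoarthritic replicates 2 and 3 gave -0.29 ± 0.21 for Rps27l, 0.14 ± 0.35 for Rpl39l, -0.82 ± 0.26 for Rpl22l1, -0.58 ± 0.20 for Rpl36al and -0.21 ± 0.12 for Rpl7l1. Rps19bp1, the name that matched the rule without being a ribosomal protein, had 0.41 ± 0.25 (-0.34 ± 0.15 without these libraries) and was high in the same 2 libraries, at 49.0 and 43.7 CPM against 18.6 to 32.1 in the others.

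Each treatment was compared with the osteoarthritic group, so these comparisons share their 4 control libraries with each other and with the comparison above. In HA-treated against osteoarthritic cartilage no member passed (edgeR), where 0.0% of all genes did. DESeq2 called 1 member and 0.0559% of all genes, and limma called 0 members. At an unadjusted p under 0.05 there were 3 members higher and 12 lower, where 6.33% of all genes passed. With only the 8 libraries compared 4 members had such a p (edgeR), and with a replicate block 5 (edgeR), also without a share of all genes. With limma there were 6, again without such a share, and the median was -0.11. In the fit of all libraries by edgeR the fold change was negative in 87 rows and the median -0.39. Leaving out osteoarthritic replicates 2 and 3, it was positive in 92 rows, with a median of 0.38 and no call (edgeR, 68 at an unadjusted p under 0.05, where 11.4% of all genes were).

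In coacervate-treated against osteoarthritic cartilage no member passed (edgeR), where 0.146% of all genes did. DESeq2 called 6 members and 5.91% of all genes, and limma called 0 members. At an unadjusted p under 0.05 there were 3 members higher and 44 lower, where 21.8% of all genes passed. With only the 8 libraries compared 11 members had such a p (edgeR), and with a replicate block 18 (edgeR), also without a share of all genes. With limma there were 16, again without such a share, and the median was -0.28. In the fit of all libraries by edgeR the fold change was negative in 88 rows and the median -0.50. Leaving out the same 2 libraries, it was positive in 88 rows with a median of 0.25 and no call (edgeR, 25 at an unadjusted p under 0.05, where 12.4% of all genes were). Without osteoarthritic replicate 1 alone there were 51 members called, 50 of them lower, where 14.3% of all genes were called. Without replicate 4 alone there were 32, all lower, where 9.54% of all genes were called. Without replicate 2 or replicate 3 alone there were none.

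**Figure D3:**
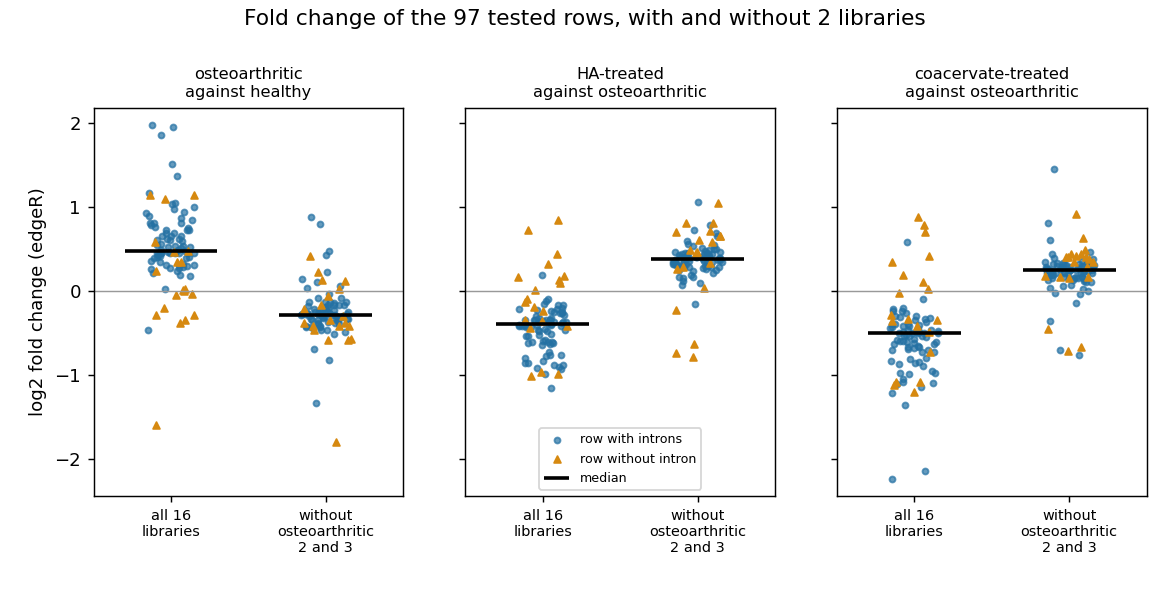
Each point is 1 of the 97 tested rows and the height its log2 fold change from edgeR, with all 16 libraries on the left of each panel and without osteoarthritic replicates 2 and 3 on the right; blue circles are rows with introns, orange triangles rows without, and the bar is the median. The medians change from 0.48 to -0.29, from -0.39 to 0.38 and from -0.50 to 0.25.

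Rps18l1, a copy by name of the small subunit gene Rps18, was 1 of the 10 members with a positive fold change after hyaluronic acid. It had 19.5, 24.6, 17 and 17.9 CPM in osteoarthritic and 27.6, 34.9, 28.9 and 39.6 in HA-treated libraries. All 4 HA-treated values were above all 4 osteoarthritic ones, as in the Rps27a row on chromosome 5 and in 1.08% of all genes. The log2 fold change was 0.73 ± 0.15 (edgeR adjusted p = 0.69), and it was the 1 member that DESeq2 called. It was 0.81 ± 0.17 without osteoarthritic replicates 2 and 3. In the coacervate-treated group Rps18l1 had 29.1, 25.1, 20.5 and 30.6 CPM, which overlapped the osteoarthritic values.

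Comparisons that do not use the osteoarthritic group showed small differences. In coacervate-treated against HA-treated cartilage no member passed (edgeR, and DESeq2 and limma called 0), where 0.0% of all genes did. There, 2 members were lower at an unadjusted p under 0.05, where 10.4% of all genes passed, and the median was -0.15 with 88 rows lower. These were Rps4y2, at -0.71 ± 0.32, and 1 of the 2 Rpl35al1 rows, at -1.37 ± 0.61. In HA-treated against healthy cartilage no member passed (edgeR, DESeq2 and limma all 0), where 0.16% of all genes did, 3 had an unadjusted p under 0.05, where 8.25% of all genes had, and the median was 0.11. All 4 HA-treated values lay above all 4 healthy ones in 7 members, where 5.08% of all genes did so. They were Rplp0, Rpl10, Rpl14, Rpl15, Rpl27a, Rps18 and Rps18l1, which includes 4 rows outside the naming rule, listed because they make up this count. In coacervate-treated against healthy cartilage no member passed (edgeR, DESeq2 and limma all 0), where 0.0% of all genes did, 1 had an unadjusted p under 0.05, where 3.85% of all genes had, and the median was -0.04.

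Markers of other cells differed in direction in these comparisons as well. In coacervate-treated against HA-treated cartilage all 14 skeletal muscle genes had a positive fold change (median 1.14), all 19 erythroid genes a positive one (0.29) and all 18 neutrophil genes a negative one (-0.60). None of these was called (edgeR), and 14, 4 and 13 had an unadjusted p under 0.05, where 10.4% of all genes had. In HA-treated against healthy cartilage all 14 muscle genes had a negative fold change (-0.74) and all 18 neutrophil genes a positive one (0.30). None was called (edgeR, 9 and 0 at an unadjusted p under 0.05, where 8.25% of all genes were). In coacervate-treated against healthy cartilage the muscle median was 0.42 and the neutrophil median -0.31. None was called (edgeR, 0 and 1 at an unadjusted p under 0.05, where 3.85% of all genes were). Their part in the members' medians was not tested.

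The 2 Rps27a rows carry 1 name and are described as 1 protein. Whether such rows are identical in sequence was not analysed here, for these or the other rows of a shared protein, so they are grouped by name and description only. One row lies on chromosome 14 of build rn6 (113966611 to 113968268, minus strand) and spans more than its transcript, as a gene with introns does. The other lies on chromosome 5 (138628482 to 138629026, minus strand) and has no room for an intron. RefSeq places Rps27a on chromosome 14 only. The chromosome 14 row had 240, 99.1, 130 and 93.2 CPM in healthy and 247, 884, 803 and 270 in osteoarthritic libraries, all 4 above the healthy ones, which held for 3.14% of all genes. It rose by a log2 fold change of 1.97 ± 0.41 (edgeR adjusted p = 0.0479). The call was narrow: leaving out healthy replicate 2, 3 or 4 gave edgeR adjusted p = 0.141, 0.159 and 0.129, and a fit of the 8 libraries compared 0.234. Over 27 alternatives, single HA-treated and coacervate-treated libraries among those left out, it was lost in 19, with adjusted p from 0.00013 to 0.234.

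The chromosome 5 row had 151, 406, 296 and 429 CPM in healthy and 65.5, 118, 123 and 119 in osteoarthritic libraries, all 4 below the healthy ones, which held for 3.19% of all genes. It fell, with a log2 fold change of -1.59 ± 0.32 (edgeR adjusted p = 0.043). Its call was lost in 14 of 27 alternatives, with edgeR adjusted p = 0.119, 0.102 and 0.114 without healthy replicate 2, 3 or 4, 0.163 in a fit of the 8 libraries compared, and a range of 0.000147 to 0.163. Without osteoarthritic replicates 2 and 3 the chromosome 5 row had -1.80 ± 0.42 (edgeR adjusted p = 0.0554) and the chromosome 14 row 0.88 ± 0.33 (edgeR adjusted p = 0.23), so both directions stayed and neither call did. The 2 rows together gave 391, 505, 427 and 523 CPM in healthy and 313, 1003, 925 and 389 in osteoarthritic libraries, which overlap. Summed over all 3 rows described as S27a, the log2 fold change was 0.51 ± 0.29 (edgeR adjusted p = 0.361), and -0.40 ± 0.17 without osteoarthritic replicates 2 and 3.

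The division of the counts between the 2 rows also differed between libraries. The chromosome 5 row held 38.6%, 80.4%, 69.4% and 82.2% of the counts of both rows in healthy libraries and 20.9%, 11.8%, 13.3% and 30.6% in osteoarthritic ones. HA-treated libraries had 40.4%, 25%, 45.5% and 52.7%, and coacervate-treated libraries 35%, 31.6%, 43.5% and 52.8%. The groups other than osteoarthritic overlapped one another. Whether a read belongs to one copy or the other depends on how the authors' counting placed reads that match both, which is not given in the sources used here.

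**Figure D4:**
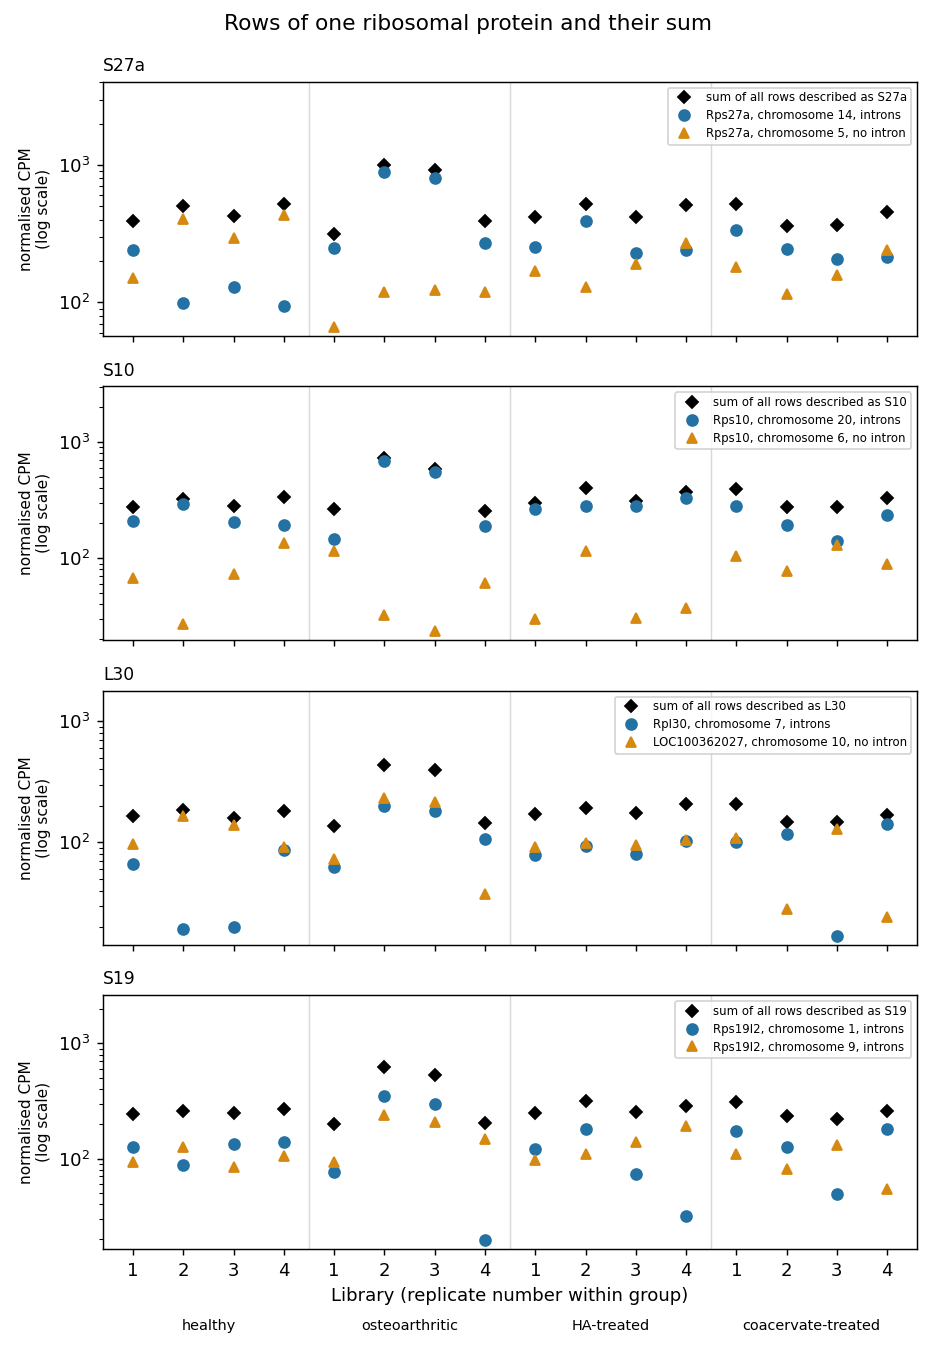
Each panel shows 1 protein, with normalised CPM on a log scale for 2 of its rows (blue and orange) and for the sum of all rows described as that protein (black) in each of the 16 libraries. The sums stay close within a group apart from osteoarthritic replicates 2 and 3, while single rows drop to 16.9 (Rpl30) or 19.5 (Rps19l2) in libraries whose sum does not.

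Other proteins also had more than 1 row. Rps10, a protein of the small subunit's head, has a row with introns on chromosome 20 and a row without on chromosome 6. The chromosome 6 row had 67.3, 27.3, 72.5 and 136 CPM in healthy, 116, 32.1, 23.4 and 61.6 in osteoarthritic, 29.8, 116, 30.5 and 37.2 in HA-treated and 104, 77.6, 130 and 89.0 in coacervate-treated libraries. High and low libraries occurred in every group but the coacervate-treated one. The sum over the 3 rows described as S10 was 278, 322, 282 and 336 CPM in healthy and 297, 402, 314 and 369 in HA-treated libraries. The chromosome 6 row and Rps10l1 had the highest log2 fold changes of coacervate-treated against HA-treated cartilage, 0.91 ± 0.54 and 0.79 ± 0.64, and neither passed.

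Rpl30, of the large subunit, had 66.8, 19.4, 20 and 87.4 CPM in healthy libraries and 16.9 in coacervate-treated replicate 3. LOC100362027, a row without introns on chromosome 10 that the table describes as L30, had 96.6, 164, 139 and 92.3 CPM in the same healthy libraries and 129 in that coacervate-treated one. It was high where Rpl30 was low. The L30 sum was 164, 184, 160 and 180 CPM in healthy libraries, and its log2 fold change between osteoarthritic and healthy cartilage was 0.69 ± 0.30, against 1.51 ± 0.57 for the Rpl30 row alone. Without osteoarthritic replicates 2 and 3 the sum had -0.30 ± 0.13 and the Rpl30 row 0.80 ± 0.65.

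Both rows named Rps19l2 have introns and lie on chromosomes 1 and 9. The chromosome 1 row fell out of step in osteoarthritic replicate 4, at 19.5 CPM, and in HA-treated replicate 4, at 31.7, where the chromosome 9 row had 148 and 190. The sum over the 5 rows described as S19 was 203 and 286 CPM in these libraries, near the other libraries of each group outside osteoarthritic replicates 2 and 3. Rpl7a, another large subunit protein with 2 rows, had 143 and 339 CPM in coacervate-treated replicate 1 and 259 and 82.6 in replicate 2.

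The 2 rows named Rpl35al1 lie on chromosome 12 with spans of 401 bases each. They had 102 and 109 CPM in osteoarthritic replicate 3 against 8.5 to 19.7 in the other osteoarthritic libraries. They had the lowest fold changes of coacervate-treated against osteoarthritic cartilage, -2.14 ± 0.62 and -2.23 ± 0.62 (edgeR adjusted p = 0.119 and 0.11), and DESeq2 called both. Without osteoarthritic replicates 2 and 3 they had -0.70 ± 0.46 and -0.76 ± 0.43. The L35a sum, with Rpl35a and an unnamed copy, had the largest difference of all 77 proteins, -1.29 ± 0.44 (edgeR adjusted p = 0.143), and had 0.34 ± 0.21 without these libraries.

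The 4 Rpl21 rows had log2 fold changes between osteoarthritic and healthy cartilage of 0.39 ± 0.19, 0.46 ± 0.22, 0.02 ± 0.15 and 0.35 ± 0.24. Rps4x, the X-linked form of RPS4, had 0.27 ± 0.19 in its row on chromosome X and -0.04 ± 0.14 in a row without introns on chromosome 4. Rpl32 had 0.87 ± 0.38 in its row with introns and -0.05 ± 0.21 in the other. With osteoarthritic replicates 2 and 3 out of the fit, the Rpl21 rows had 0.04, -0.21, -0.30 and -0.41 in the same order, the Rps4x rows -0.23 and -0.34, and the Rpl32 rows -0.42 and -0.38.

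Rows were sorted by whether they can hold an intron. The length implied by counts and FPKM exceeded 1.1 times the genomic span in 21 of the 98 rows, where models without introns sit. In 15 of these 21, among them the rows named Rpl9, Rpl35a, Rpl37, Rpl38, Rpl39, Rps13 and Rps29, RefSeq places the gene of that name on another chromosome than the row does. The builds differ, so this is a comparison of chromosome names only. Among the tested rows, 76 of 77 with introns and 12 of 20 without had a positive fold change between osteoarthritic and healthy cartilage, with medians of 0.52 and 0.02. These medians were -0.27 and -0.36 without osteoarthritic replicates 2 and 3. Rows without introns were lower in level, with a median FPKM of 36.2 against 369, and near-identical copies can share reads.

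How closely a row kept to the shared shift was measured by the SD over the 16 libraries of its deviation from it. The median SD was 0.18, beside an SD of 0.41 for the levels themselves. Rpl35, at 0.035, kept closest, followed by Rps3a at 0.040, Rpl18 at 0.048 and, among the next rows, Rps24 at 0.054. Rps3a had 867, 1018, 917 and 1043 CPM in healthy and 751, 1904, 1794 and 794 in osteoarthritic libraries. These are proteins of both subunits with rows that have introns.

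The rows that kept least were Rps10l1 at 1.26, Rpl10l at 1.18, the Rps10 row on chromosome 6 at 1.121, Rpl30 at 0.94 and the Rps19l2 row on chromosome 1 at 0.90. Rpl10l, the X-to-autosome copy of Rpl10, rested on 1350 counts over all 16 libraries, so counting error is a larger part of its spread. When all rows described as 1 protein were summed, unnamed copies included, the median SD over 77 proteins was 0.12 and the largest 0.36, for L35a. The sums for S10, S19, S27a and L30 all lay below that. Not every sum need hold the main gene of its protein. For S13, L37 and L38 every summed row lacked introns, and none lay on the chromosome that RefSeq gives. Those sums were low, at 17.2 to 45.3, 18.6 to 75.9 and 4.38 to 10.9 CPM, and may hold copies only. This summing was chosen after the data had been seen. On the summed counts no protein passed between osteoarthritic and healthy cartilage (edgeR), and 35 had an unadjusted p under 0.05. In the fit of single rows 17.8% of all genes had such a p. All 77 fold changes of the sums were positive, with a median of 0.51. In the fit without osteoarthritic replicates 2 and 3 all 77 were negative, with a median of -0.29 and none called (edgeR, 31 at an unadjusted p under 0.05). Of all genes, 15.3% were in that fit of single rows. Sums that move together do not add separate support. Without these 2 libraries the same sums were all positive against osteoarthritic cartilage, with medians of 0.39 after hyaluronic acid and 0.25 after the coacervate. All 77 were negative in the fit of all libraries (medians -0.40 and -0.55).

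**Figure D5:**
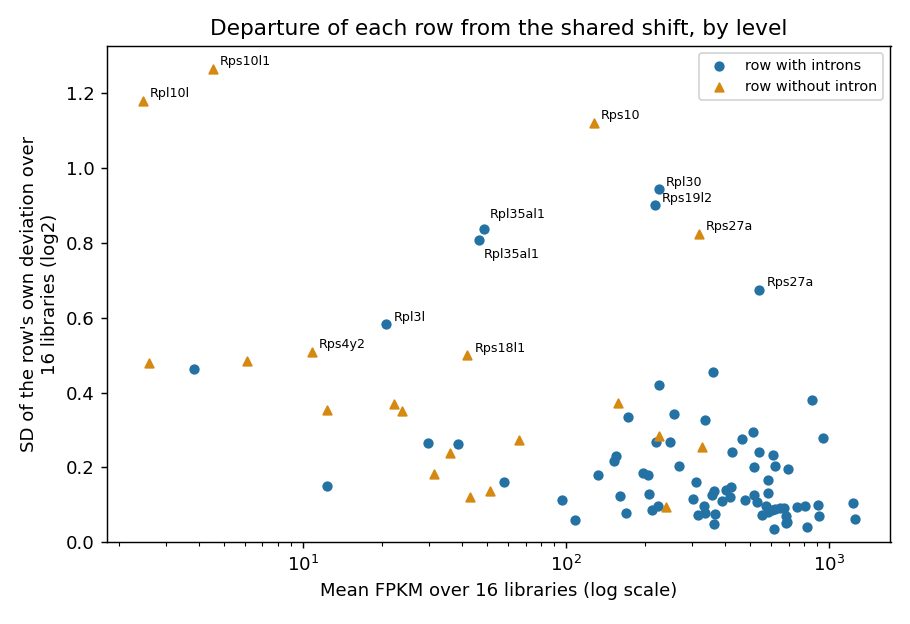
Each point is 1 tested row, with mean FPKM over the 16 libraries on a log scale across and the SD of its deviation from the shared shift upward; orange triangles are rows without introns and the 12 rows with the largest SD are named. Most rows above 100 FPKM lie below 0.4, and the named rows above that level belong to proteins with more than 1 row.

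The genes of mitochondrial ribosomes, which are nuclear genes without a TOP motif in general, were high in the same 2 libraries. Their median shift was 0.80 and 0.71 in osteoarthritic replicates 2 and 3 and -0.29 to 0.07 in the others. Of 74 tested, 72 had a positive fold change between osteoarthritic and healthy cartilage, with a median of 0.44. None passed (edgeR), and 32 had an unadjusted p under 0.05, where 17.8% of all genes had. Mrps33, of the small mitochondrial subunit, had 1.09 ± 0.36 and Mrpl17 0.44 ± 0.15. Without osteoarthritic replicates 2 and 3 their median was -0.14, Mrps33 had -0.15 ± 0.19 and Mrpl17 0.07 ± 0.10.

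Translation factors and other genes with TOP mRNAs were examined next. Their median shift was 0.59 and 0.46 in osteoarthritic replicates 2 and 3 and -0.28 to 0.08 in the other libraries. These were the 2 highest libraries in 15 of 22 rows (68.2%), which held for 20.1% of all tested genes. Of 22 tested rows, 17 had a positive fold change between osteoarthritic and healthy cartilage and the median was 0.25. None was called (edgeR), and 3 had an unadjusted p under 0.05, where 17.8% of all genes had. Eef1a1, which brings aminoacyl-tRNA to the ribosome, had 0.48 ± 0.20, Naca 0.59 ± 0.24, and Rack1, a scaffold bound to the small subunit, 0.50 ± 0.23. Against the osteoarthritic group, Tpt1 had -0.64 ± 0.28 after hyaluronic acid and -0.66 ± 0.28 after the coacervate. The list's median against healthy was -0.21 without osteoarthritic replicates 2 and 3, where Eef1a1 had 0.02 ± 0.14, Naca -0.15 ± 0.12 and Rack1 -0.21 ± 0.10, and Tpt1 had 0.25 ± 0.15 and 0.22 ± 0.15 in the treatment comparisons.

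Genes of ribosome assembly were divided in direction, and as a list they were also high in osteoarthritic replicates 2 and 3. Their median shift was 0.37 and 0.33 there and -0.14 to 0.04 in the other libraries. These were the 2 highest libraries in 28 of the 48 genes (58.3%), which held for 20.1% of all tested genes. Of 48 tested, 36 had a positive and 12 a negative fold change between osteoarthritic and healthy cartilage, with a median of 0.13. None was called (edgeR), and 5 had an unadjusted p under 0.05, where 17.8% of all genes had. Nop10, of the box H/ACA particles, had 0.54 ± 0.20 and Polr1c, a subunit of RNA polymerases I and III, 0.47 ± 0.17. The helicase Ddx21 had -0.36 ± 0.11 and the acetyltransferase Nat10 -0.28 ± 0.10. In coacervate-treated against osteoarthritic cartilage Nop16 had -0.70 ± 0.23 and none was called (edgeR). Of the 48, 11 had an unadjusted p under 0.05 there, where 21.8% of all genes had. With the 2 libraries left out the median against healthy was -0.15, Nop10 had -0.03 ± 0.13, Polr1c 0.02 ± 0.12, Ddx21 -0.15 ± 0.09 and Nat10 -0.21 ± 0.11, and Nop16 had 0.04 ± 0.10 in the coacervate comparison.

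Genes of the mTOR pathway and of TOP control showed no shared direction. Of 17 tested, 7 had a positive fold change between osteoarthritic and healthy cartilage, with a median of -0.03. None was called (edgeR), and 0 had an unadjusted p under 0.05, where 17.8% of all genes had. Larp1 had -0.23 ± 0.15 and Eif4ebp1, the repressor of cap binding that mTOR phosphorylates, 0.31 ± 0.18. Leaving out osteoarthritic replicates 2 and 3, Larp1 had 0.07 ± 0.09, Eif4ebp1 -0.13 ± 0.13 and the list a median of 0.03. In coacervate-treated against osteoarthritic cartilage Larp1 had 0.33 ± 0.15, Eif4ebp1 -0.52 ± 0.18 and Deptor, an inhibitor of mTOR, 0.63 ± 0.25. No gene of the list was called (edgeR), and 3 had an unadjusted p under 0.05, where 21.8% of all genes had. In that comparison Larp1, Eif4ebp1 and Deptor had 0.02 ± 0.09, -0.08 ± 0.13 and 0.33 ± 0.28 without osteoarthritic replicates 2 and 3.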

How the data were processed

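RNA was selected with oligo(dT) and sequenced as a strand-marking library with paired reads, per the labels' protocols. Build rn6, HISAT2 2.2.1, cutadapt 1.9, edgeR, DESeq2 and StringTie 2.1.6 are listed in the submitters' processing notes. The counter, its annotation and its strand setting are not given in the sources used here, so reads of overlapping genes and of near-identical copies may be divided between rows. The deposited table gives raw counts per gene and, beside them, FPKM computed by the authors. Depth is the total count per library, 36988722 to 50725189. No molecular identifiers are mentioned, so reads of 1 amplified fragment may be counted more than once.

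The counts were tested with edgeR's quasi-likelihood test (edgeR 4.0.16, R 4.3.3) in 1 fit of 4 group means with TMM scaling, over the 14337 genes that reached an FPKM of 1 in 4 or more libraries, and p-values were Benjamini-Hochberg adjusted over all of these (threshold 0.05). Levels are CPM (counts scaled to TMM library size), and log2 levels used a prior count of 2. DESeq2 1.42.0 and limma 3.58.1 on log2(FPKM + a pseudocount of 1 or 0.1) were alternatives, beside other scalings and filters, fits without single libraries, a replicate block and summed rows. Python 3.11.15 was used for summaries. The fits were tested on simulated data. No pairing of libraries by replicate number was seen, though a weak one could be missed. Row length was taken from counts and FPKM. Protein sums were taken from the table's descriptions (190 rows, 77 proteins), after related genes, Rps4y2 and Rps19bp1 had been left out by name. Sequences are RefSeq's, build GRCr8.

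The members and gene lists were chosen with earlier results of these data known. Named were rows that passed, the 3 highest and 3 lowest fold changes in each of 4 comparisons, a fixed panel, repeated names, the 5 rows that kept most and least to the shared shift, Rps19bp1, and up to 4 genes of each related list in each comparison. LOC100911847, LOC100362027, Rps2, the cartilage genes Acan, Cnmd, Hapln1 and Col9a1, and the rows listed by chromosome or by non-overlapping values fall outside this rule. They were chosen after their values were seen. Of the genes this rule names, 2 are not reported here.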

Additional observations from a re-analysis of the deposited data

Results flagged for a closer look

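Among 200 groups of 4 libraries examined for the named rows, 9 had 1 library whose distance to the nearest other library was larger, relative to the range of the group, than Dixon's 95% critical value for 4 samples. Chance alone gives about 1 in 20 groups. All values are normalised CPM.

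Most lie in rows that share their protein with another row. The Rps27a row on chromosome 14 had 391 in HA-treated replicate 2, above 228 to 251 in the other 3, and the Rps27a row on chromosome 5 had 65.5 in osteoarthritic replicate 1, below 118 to 123. The Rps10 row on chromosome 6 had 116 in HA-treated replicate 2, above 29.8 to 37.2, and the row on chromosome 20 had 293 in healthy replicate 2, above 195 to 208. Rps10l1 had 5.76 in osteoarthritic replicate 1, above 0.711 to 1.56. The 2 Rpl35al1 rows had 102 and 109 in osteoarthritic replicate 3, above 8.64 to 19.2 and 8.5 to 19.7. Rps18l1 had 22 in healthy replicate 4, below 25.7 to 26.2.

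The other was Rpl3l, with 60.3 in coacervate-treated replicate 3 above 30.4 to 31.4.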

How the results depend on the processing

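Results on the osteoarthritic group turned on its replicates 2 and 3. Without both, the median log2 fold change of members was -0.29 against healthy, 0.38 for HA-treated and 0.25 for coacervate-treated against osteoarthritic cartilage. Leaving out 1 library at a time gave medians of 0.24 to 0.66, -0.59 to -0.15 and -0.73 to -0.28 in these comparisons, -0.23 to -0.08 for coacervate-treated against HA-treated, 0.07 to 0.16 for HA-treated against healthy and -0.12 to 0.02 for coacervate-treated against healthy. Members called between osteoarthritic and healthy cartilage, 2 in all libraries, were 0 to 29 with 1 library left out, 0 without osteoarthritic replicates 2 and 3, and 0 with no filter, with only the 8 libraries compared, with rows of 1 name summed, with all copies of 1 protein summed (chosen after the data had been seen) and with limma at a pseudocount of 1. They were 1 with limma at a pseudocount of 0.1, with total counts in place of TMM and with a replicate block. In the fit with 29 member calls, 7.83% of all genes were called (edgeR). For the block, limma and 8-library fits such a share was not taken. Coacervate-treated against osteoarthritic cartilage gave 0 to 51 calls with 1 library left out and 6 with DESeq2, and HA-treated against osteoarthritic 1 with DESeq2. The fit with 51 member calls called 14.3% of all genes (edgeR). DESeq2 called 5.91% of all genes in the coacervate comparison and 0.0559% in the HA-treated one. Without TMM the median of all genes moved to -0.08, 0.10 and 0.06 in the 3 comparisons with the osteoarthritic group, and the members' medians were 0.32, -0.22 and -0.37. With limma, at both pseudocounts, the members' medians in these comparisons were 0.23, -0.11 and -0.28. With haemoglobin rows out of the total, the members' share was 3.42% for healthy cartilage, 3.63% after hyaluronic acid and 3.31% after the coacervate. For single named rows, 186 of 5284 alternative values had the other sign, 107 of them among the 196 without osteoarthritic replicates 2 and 3. None of these was of a row that had passed, 33 values lost a call and 58 gained one.

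The replicate block gave medians of 0.43, -0.34, -0.44, -0.13, 0.11 and -0.02 in the 6 comparisons, in the order osteoarthritic against healthy, HA-treated and coacervate-treated against osteoarthritic, coacervate-treated against HA-treated, and each treatment against healthy. Of 24 pairs of libraries with the same number, 4 had a correlation of deviations above 0.1 (median -0.0315). Of 72 pairs with different numbers, 20 had (median 0.004). No pairing by number was seen, though correlations over all genes can miss a weak one. With the block, 18 members had an unadjusted p under 0.05 between osteoarthritic and healthy cartilage (edgeR), against 40 without it. Of all genes, 17.8% had such a p without the block. The share with the block was not taken, so the drop cannot be read as particular to the members.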
